A study of Saccharomyces cerevisiae with 6 samples.

Results

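The genes described here are 7 budding yeast genes for enzymes that release fatty acids from stored neutral lipid, out of 979 yeast genes on the array. Each was matched to the array by its symbol, and the set was chosen with earlier results of these data known. TGL3, TGL4, TGL5 and TGL2 encode triacylglycerol lipases, and TGL1, YEH1 and YEH2 encode steryl ester hydrolases. All 7 symbols were found, each as a single probe. The array annotation places YEH2 at the plasma membrane and gives the TGL2 product no clear part in yeast lipid breakdown, so not all 7 enzymes are lipid droplet proteins.

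The study compared a wild type Saccharomyces cerevisiae strain that overexpressed ACC1 (3 samples) with the wild type strain (3 samples). Total RNA was amplified to biotin-labelled RNA and each sample was hybridized to its own single-colour array. The sources used here do not give the strain background, the growth medium or the way in which ACC1 was overexpressed. Nothing in the labels ties the replicates to separate cultures. The p-values therefore cover the spread among these 6 samples, and that spread may be technical.

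Yeast stores fatty acids as triacylglycerol and sterols as steryl esters, and both are packed into lipid droplets, organelles with a core of neutral lipid under a single layer of phospholipid. Acetyl-CoA carboxylase, the product of ACC1, makes malonyl-CoA, the building block of new fatty acids. The lipases work at the other end of the cycle: they cut the stored esters when growth resumes or when lipid supply is short, and the fatty acids released are activated to acyl-CoA and built into membrane lipid or oxidized in peroxisomes. Tgl3, Tgl4 and Tgl5 share a patatin-like domain, and Tgl1, Yeh1 and Yeh2 are related to the acid lipases of mammals.

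Each gene was read by 1 probe of 35 to 37 bases, printed in 3 spots for TGL5 and in 2 spots for the others. The probe sequences are shown because all values below rest on them. Capitals mark the longest run that a probe shared with the probe of any other gene on the array, which was 9 to 11 bases. Probes were compared with each other only, not with the transcripts of the genome.
TGL3: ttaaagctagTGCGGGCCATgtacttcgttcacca
TGL4: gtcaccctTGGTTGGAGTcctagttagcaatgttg
TGL5: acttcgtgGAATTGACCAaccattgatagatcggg
TGL2: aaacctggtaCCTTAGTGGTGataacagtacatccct
TGL1: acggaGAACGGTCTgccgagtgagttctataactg
YEH1: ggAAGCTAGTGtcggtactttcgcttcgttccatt
YEH2: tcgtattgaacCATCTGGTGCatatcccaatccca

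By the positions in the probe names, counted from the first base of the open reading frame, the TGL3 probe covered bases 1830 to 1864 and the TGL4 probe bases 2006 to 2040. The TGL5 probe covered bases 1435 to 1469, the TGL2 probe bases 287 to 323 and the TGL1 probe bases 1368 to 1402. The YEH1 and YEH2 probes covered bases 803 to 837 and 757 to 791. Between members, the longest shared run was 9 bases, between the TGL3 and YEH1 probes (the run in capitals in the YEH1 probe). The probes of TGL4 and TGL5 shared no more than 5 and 7 bases with the probe of any other member.

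Taken over all probes, the letters as listed read as the strand opposite to the coding strand. Read in the frame that the named positions give, the reverse complement held a stop codon in 0 of 979 probes, whereas the letters as listed held one in 441. The labels describe the labelled RNA as antisense to the mRNA, which is the same strand as the listed letters. The sources used here do not say whether the list gives the strand that was synthesized on the array.

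The scanner tables give a median foreground intensity per spot. The middle intensity of the yeast spots was 1900 ± 114 on the ACC1 overexpression arrays and 4120 ± 440 on the wild type arrays (SD, n = 3 each), a gap that quantile normalization removed, and the number of arrays limits the precision. The groups were on separate arrays, so a difference in hybridization or scanning and the group cannot be told apart. ACC1 itself checked the labels: its normalized log2 intensity was 14.08 ± 0.07 in ACC1 overexpression and 11.77 ± 0.10 in wild type (SD, n = 3 each), 4.99-fold higher (95% interval 4.47 to 5.56, adjusted p = 1.18e-07 in limma).

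No difference beyond the spread between arrays was found for any of the 7 genes when ACC1 was overexpressed. No member passed the threshold, an adjusted p under 0.05 in limma after Benjamini-Hochberg correction over the 979 genes, which 34 genes or 3.47% passed (2.66% higher and 0.817% lower in ACC1 overexpression). The count was also 0 at an unadjusted p under 0.05, which 20.1% of all genes reached, and in no member did the 3 values of one group lie beyond those of the other, as they did in 24.7% of all genes. With 7 members, the share of called genes on the array corresponds to fewer than 1 call, so a count of 0 does not set the members apart. The median log2 difference, ACC1 overexpression minus wild type, was −0.0075 over the members and −0.0088 over all genes. The median absolute difference was 0.016 over the members and 0.077 over all genes, while the median standard error was 0.065 and 0.067. That gap was not tested. No background was subtracted, which can understate the differences of dim probes.

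**Figure D1:**
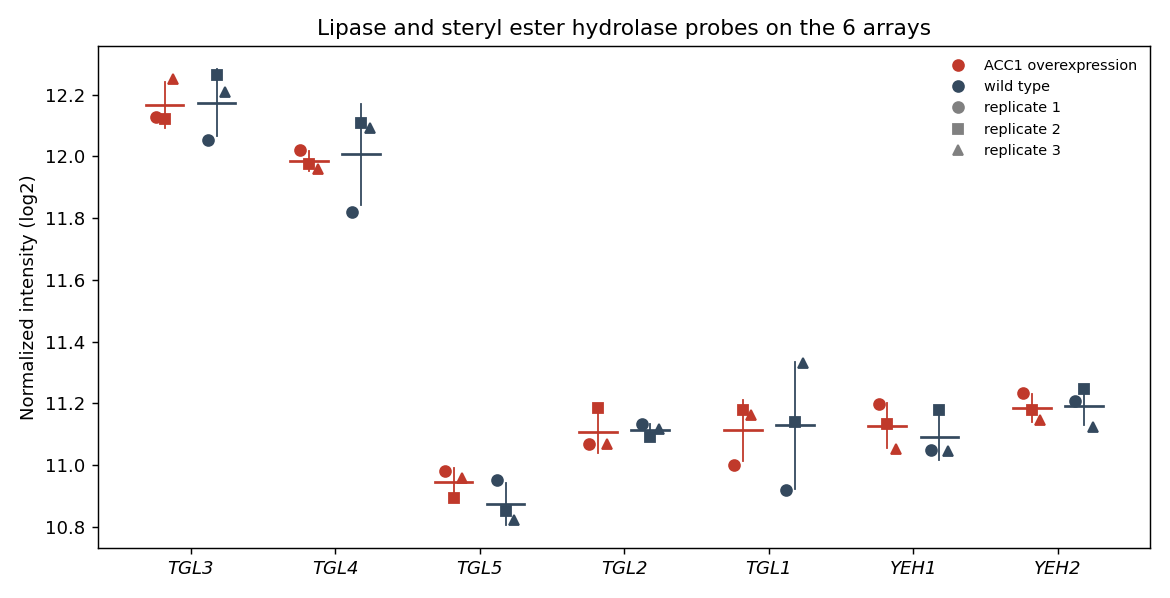
Normalized log2 intensity of the 7 probes on each array, with ACC1 overexpression in red and wild type in blue, markers for replicates 1 to 3, horizontal lines for group means and vertical lines for ± 1 SD (n = 3 each). The groups overlap for every gene, and levels of different probes cannot be set against each other.

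Tgl3 is the main triacylglycerol lipase of the yeast lipid droplet. TGL3 had normalized log2 intensities of 12.13, 12.12 and 12.25 in ACC1 overexpression and 12.05, 12.26 and 12.21 in wild type (replicates 1, 2 and 3). The 3 ACC1 overexpression values lay inside the wild type range, whose lowest point was wild type replicate 1. The difference was −0.0075 on the log2 scale with a standard error of 0.07, or a fold of 0.995 (95% interval 0.889 to 1.11, adjusted p = 0.971 in limma). Before normalization, TGL3 stood at 2.19 to 2.50 times the 95th percentile of the control probes on the ACC1 overexpression arrays and at 1.91 to 2.93 times on the wild type arrays.

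Tgl4 is the yeast counterpart of mammalian adipose triglyceride lipase and is phosphorylated by the cyclin-dependent kinase Cdc28, which ties lipid breakdown to the cell cycle. TGL4 had values of 12.02, 11.98 and 11.96 in ACC1 overexpression and 11.82, 12.11 and 12.09 in wild type. Wild type replicate 1 was again the low array, and the ACC1 overexpression values lay close together between it and the other wild type values. The SD was 0.03 in ACC1 overexpression and 0.16 in wild type (n = 3 each), and the group means differed by −0.022 (fold 0.985, 95% interval 0.867 to 1.12, adjusted p = 0.927 in limma). Between same-numbered arrays, which were not taken as pairs, the difference was 0.20, −0.13 and −0.13, so its sign was not shared. Signal was at least 1.60 times the control percentile on every array.

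Tgl5 is the paralog of Tgl4 and a lipase of the droplet with a preference for triacylglycerol that holds very long chain fatty acids. TGL5 lay close to the control probes. It exceeded their 95th percentile on 3 of 3 ACC1 overexpression arrays, at 1.03 to 1.06 times that level, and on 1 of 3 wild type arrays, where it stood at 0.844 to 1.03 times. Of all 979 genes, 793 to 889 exceeded it on the ACC1 overexpression arrays and 628 to 891 on the wild type arrays. The normalized log2 values of TGL5 were 10.98, 10.89 and 10.96 in ACC1 overexpression and 10.95, 10.85 and 10.82 in wild type. ACC1 overexpression replicates 1 and 3 had the highest values, and wild type replicate 1 lay above ACC1 overexpression replicate 2. With a log2 difference of 0.0705 and a standard error of 0.06, TGL5 showed the largest estimate among the members (fold 1.05, 95% interval 0.956 to 1.15, adjusted p = 0.554 in limma). Between same-numbered arrays, which were not taken as pairs, the TGL5 difference was 0.03, 0.04 and 0.14. How often a sign was shared in this way over all genes was not counted. The 3 spots of the TGL5 probe differed more within an array than the spots of any other member did. Their median log2 range was 0.30, against 0.04 to 0.16 for the other 6 probes, which have 2 spots.

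Tgl2 is a mitochondrial protein with lipase activity in vitro. TGL2 had values of 11.07, 11.18 and 11.07 in ACC1 overexpression and 11.13, 11.09 and 11.12 in wild type. The wild type values lay inside the ACC1 overexpression range. Its SD was 0.07 in ACC1 overexpression and 0.02 in wild type (n = 3 each), whereas the wild type SD was the larger one in the other 6 members, as in 61.9% of all genes. Its difference was −0.0081 (95% interval −0.14 to 0.12 on the log2 scale, adjusted p = 0.966 in limma).

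**Figure D2:**
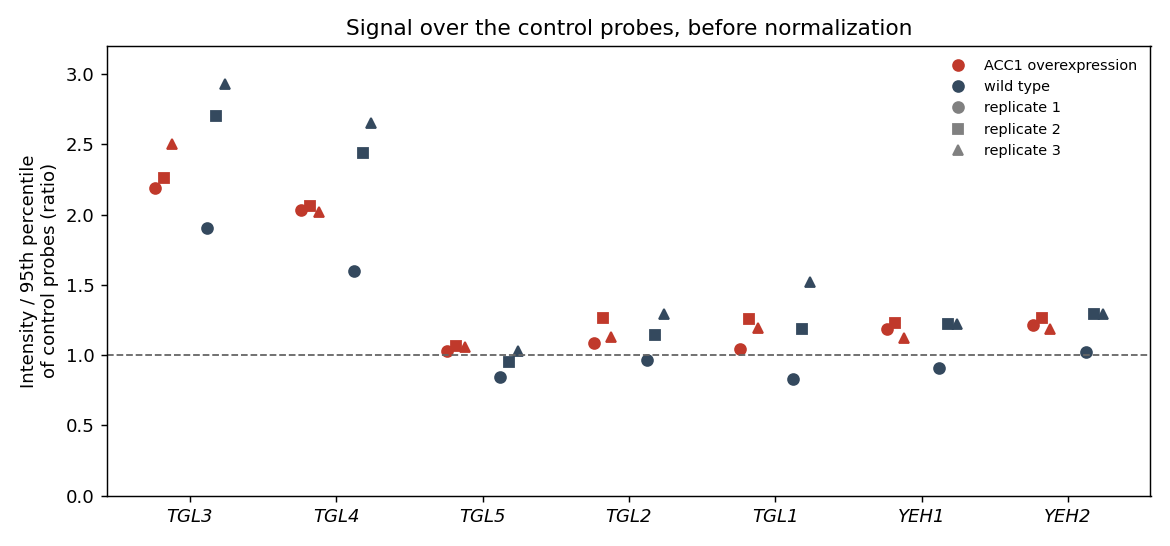
Intensity of each probe before normalization, divided by the 95th percentile of the 26 control probes of the same array (dashed line at a ratio of 1), with ACC1 overexpression in red, wild type in blue and markers for replicates 1 to 3. TGL3 and TGL4 stood at 1.60 or more on every array, while the other 5 probes stood between 0.829 and 1.52.

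The 3 steryl ester hydrolases release sterols and fatty acids from steryl esters, Tgl1 and Yeh1 at the lipid droplet and Yeh2 at the plasma membrane. TGL1 had normalized log2 values of 11.00, 11.18 and 11.16 in ACC1 overexpression and 10.92, 11.14 and 11.33 in wild type. The wild type arrays spread the most here, with a range of 0.41 against 0.18 in ACC1 overexpression, and the ACC1 overexpression values lay inside it. Its difference of −0.016 therefore has the widest interval of the 7 genes, from a fold of 0.843 to a fold of 1.16 (adjusted p = 0.964 in limma).

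Yeh1 is the steryl ester hydrolase that matters most when heme is lacking. YEH1 had values of 11.20, 11.13 and 11.05 in ACC1 overexpression and 11.05, 11.18 and 11.05 in wild type. Both groups covered almost the same range. The difference was 0.037 with a standard error of 0.06 (fold 1.03, 95% interval 0.927 to 1.14, adjusted p = 0.802 in limma).

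YEH2 had values of 11.24, 11.18 and 11.15 in ACC1 overexpression and 11.21, 11.25 and 11.12 in wild type, so the ACC1 overexpression values again lay inside the wild type range. The difference was −0.0071 (fold 0.995, 95% interval 0.907 to 1.09, adjusted p = 0.967 in limma). YEH2 exceeded the control percentile on all 6 arrays, whereas TGL1, TGL2 and YEH1 did so on 3 of 3 ACC1 overexpression arrays and 2 of 3 wild type arrays. Wild type replicate 1 was the array on which these 3 fell below it, at 0.829 to 0.964 times that level. That array had 628 of the 979 genes above its control percentile, against 816 and 891 on the other wild type arrays. On the ACC1 overexpression arrays 793 to 889 genes were above it.

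**Figure D3:**
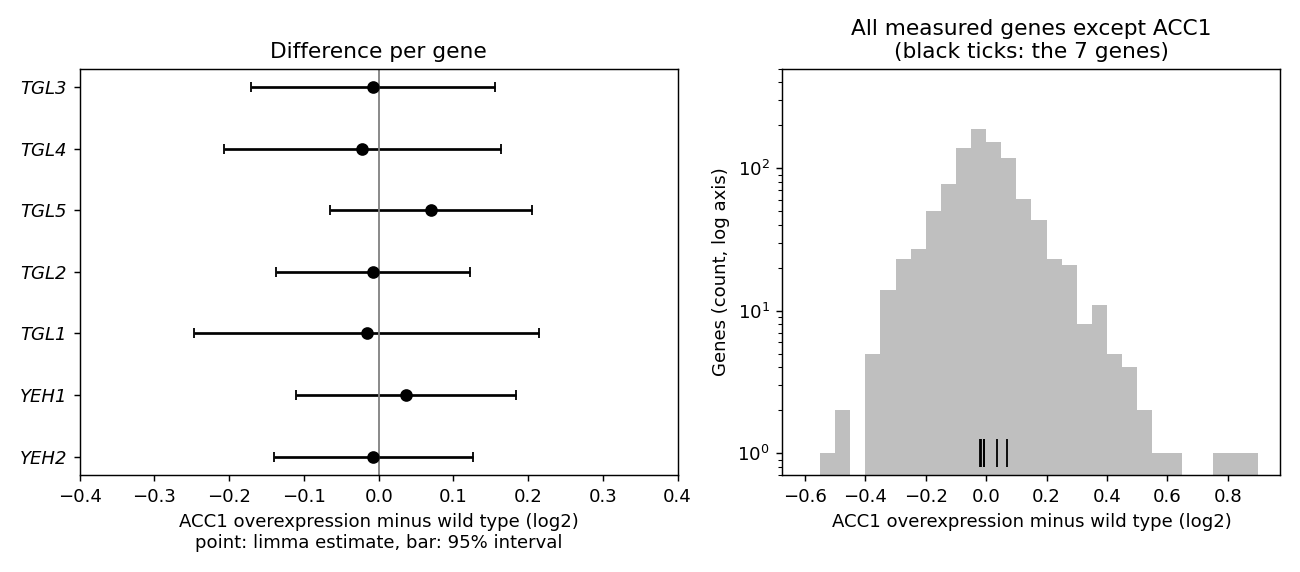
Left, the limma estimate of ACC1 overexpression minus wild type (log2) for each gene with its 95% interval (3 arrays each). Right, the same difference for all measured genes except ACC1 (bars, logarithmic count axis), with the 7 genes as black ticks. Every interval crosses 0, and the members lie between −0.022 and 0.0705.

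The intervals state which changes of measured intensity the arrays could have missed. On the normalized scale, none of the 7 intervals reached a fold below 0.843 or above 1.16. No background was subtracted for these values, which can understate folds of dim probes, so the intervals were also read after a normexp background correction with an offset of 50. ACC1 then stood at 2.96 on the log2 scale in place of 2.32. The TGL3 interval widened to folds of 0.806 to 1.22 and the TGL4 interval to 0.781 to 1.23. For the dim probes the intervals ran from 0.792 to 1.21 for TGL2 and from 0.675 to 1.45 for TGL1. YEH1 ran from 0.837 to 1.35 and YEH2 from 0.804 to 1.22. TGL5 had an estimate of 1.2-fold with an interval of 0.939 to 1.54 (adjusted p = 0.386 in limma). A 2-fold change of intensity in either direction lay outside every one of these intervals, while an increase of 1.2-fold lay inside each of them. With normexp and no offset, the TGL1 interval ran from 0.642 to 1.534 and the TGL5 interval from 0.935 to 1.645. How much of the signal of the dim probes came from their transcripts was not measured. For these probes the intervals therefore do not exclude a 2-fold change of the mRNA.

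**Figure D4:**
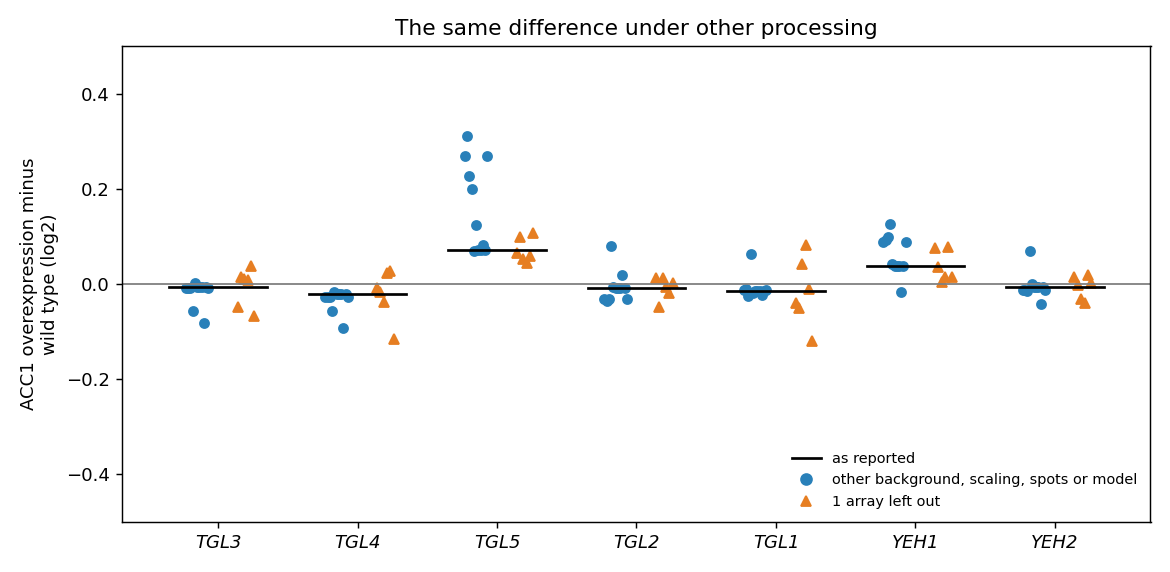
ACC1 overexpression minus wild type (log2) for each gene as reported (black line), under 11 other choices of background correction, scaling, spot summary, filter or model (blue circles), and with each of the 6 arrays left out (orange triangles). No point had an adjusted p under 0.05, and the TGL5 circles reached 0.31.

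Genes around the lipases were read from 4 lists, chosen with earlier results of these data known. In the synthesis of triacylglycerol and steryl esters, 11 of 16 genes were measured and none passed the threshold in either direction (median difference 0.04, beside −0.0088 over all genes). The 2 largest differences there were those of LRO1, the acyltransferase that forms triacylglycerol from a phospholipid donor (−0.16, standard error 0.06, adjusted p = 0.151 in limma), and LPP1, a lipid phosphate phosphatase (0.14, standard error 0.06, adjusted p = 0.227). LRO1 exceeded the control percentile on 1 of 3 ACC1 overexpression arrays and 2 of 3 wild type arrays. The acyltransferase genes DGA1, ARE2 and ARE1 stood at −0.13, 0.05 and −0.0028.

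Among proteins of the lipid droplet and its formation, 11 of 17 genes were measured and none passed (median −0.04). SRT1, a cis-prenyltransferase found on droplets, stood at −0.14 (adjusted p = 0.427) and AYR1, a reductase that also has lipase activity, at 0.10 (adjusted p = 0.407). PLN1, the yeast perilipin that coats droplets, was at −0.014 with a standard error of 0.12.

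Among other lipid hydrolases, 13 of 17 genes were measured and none passed either. The median of this list was −0.11, beside −0.0088 over all genes. Of its 13 genes 10 had a negative difference, against 525 of all 979 genes. The groups did not overlap in 5 of the 13, against 24.7% of all genes, and 3 reached an unadjusted p under 0.05 in limma, close to the 20.1% of all genes. The list as a set was not tested. Its 2 largest differences were those of ATG15, the vacuolar lipase that breaks down autophagic bodies and droplets taken up by the vacuole (−0.28, standard error 0.17, adjusted p = 0.399), and TES1, the peroxisomal acyl-CoA thioesterase (−0.27, standard error 0.11, adjusted p = 0.209). YJU3, the monoglyceride lipase that completes the breakdown of triacylglycerol, stood at −0.13 (adjusted p = 0.30). The spots of SPO1, in this list, were saturated on every array, so its value carries no difference.

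Among genes that activate, carry or oxidize the fatty acids released, 17 of 18 were measured and none passed (median −0.0030). IDP3, the peroxisomal isocitrate dehydrogenase that supplies NADPH for oxidation of unsaturated fatty acids, stood at −0.38 (standard error 0.19, adjusted p = 0.30). ECI1, an enoyl-CoA isomerase of the same pathway, stood at 0.24 (standard error 0.08, adjusted p = 0.127), and exceeded the control percentile on 1 of 3 wild type arrays. The acyl-CoA synthetase genes FAA4 and FAA1 were at 0.09 and −0.022, and FAA1 was not above the control percentile on any array.

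**Figure D5:**
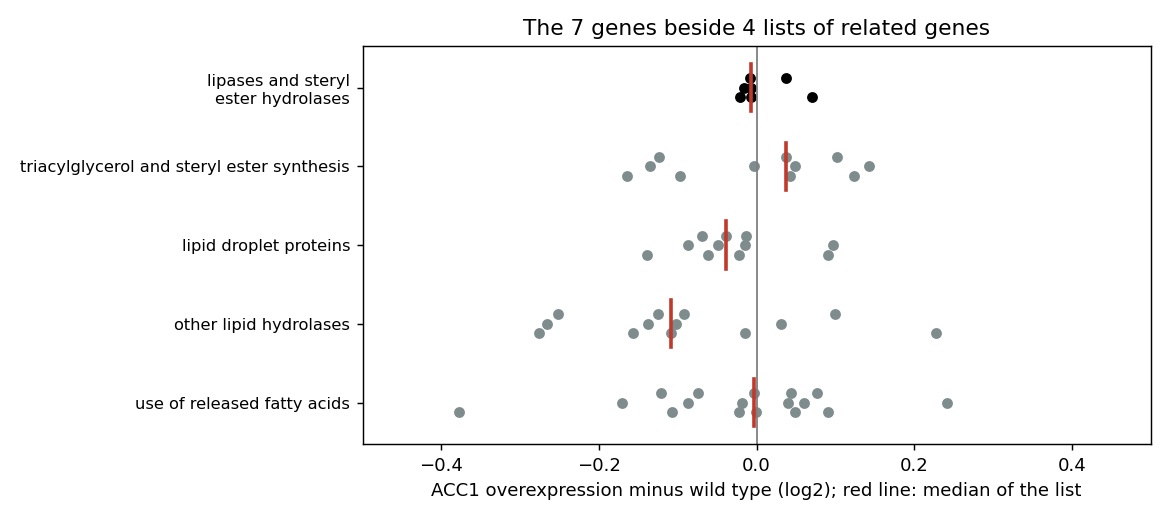
ACC1 overexpression minus wild type (log2) for each measured gene of 5 sets, with the median of each set as a red line. The lipases and steryl ester hydrolases (black) lie between −0.022 and 0.0705, and the list of other lipid hydrolases has its median at −0.11. Genes below the control percentile on all arrays (DPP1 and FAA1) and the saturated SPO1 are included.

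Across the 6 arrays, the genes whose normalized values ran most nearly parallel to those of TGL3 were PKH3, a protein kinase gene (Pearson r = 0.935), and RMA1 (0.933). For TGL4 they were SGA1, a glucoamylase of sporulation (r = 0.969), and LYS9 of lysine synthesis (0.955). For YEH2 they were GPI19, of glycosylphosphatidylinositol anchor synthesis (r = 0.982), and PTP1, a protein tyrosine phosphatase (0.968). These are the 2 highest values among 978 genes for each of the 3 members above the control percentile on all arrays. They describe 6 arrays in 2 groups and carry no test.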

How the data were processed

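Expression was measured on 6 single-colour arrays, 3 of ACC1 overexpression and 3 of wild type, grouped by the sample titles. The deposited scanner tables hold, per the file headers, a median foreground intensity for each of 2240 spots and no background values. The sources used here name no scanner software and do not say if background had been removed. The authors' deposited value table holds a score for 906 rows (column medians −0.15 to −0.06). Its scale, centring and direction are unknown, and by row number its scores did not follow the probes (r from −0.053 to −0.0355 across rows), so it was not used for genes.

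Intensities were taken to log2, quantile normalized over the yeast spots without the 26 control probes, and averaged over the spots of a probe. All 979 systematic names were found in the R64 table, which served for symbols. The 26 control probes are those with no gene comment, and it was assumed that they detect no yeast RNA. Above background means brighter than the control probes' 95th percentile on that array, as 793 to 889 genes were in ACC1 overexpression and 628 to 891 in wild type. Groups were compared with limma 3.58.1 in R 4.3.3 (lmFit, eBayes, two-sided), adjusted over all 979 genes by Benjamini-Hochberg, with a threshold of 0.05. The 95% intervals are limma's and not adjusted for multiple tests.

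The 7 members and the 4 lists were chosen with earlier results of these data known. Named genes are the members, ACC1, the 2 genes per list with the largest absolute difference, and the 2 genes most correlated with each member above background on all arrays. DGA1, ARE1, ARE2, PLN1, YJU3, FAA1, FAA4, SPO1, DPP1, EHT1 and SPO14 were added once their values had been seen. Alternatives covered background, scaling, spots, dim genes, variances, weights, replicate block, thresholds and leaving out arrays.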

Additional observations from a re-analysis of the deposited data

How the results depend on the processing

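The count of members past the threshold was 0 in all 19 other settings, with the lowest adjusted p in limma at 0.0820 (TGL5 with a common median). At the stricter threshold of 0.01 a count of 0 was fixed in advance. Of 119 member values under alternatives, 0 gained a call. The signs of the small estimates were not stable. Of 17 settings per gene, TGL2, TGL3 and YEH2 changed sign in 5 each, TGL1 in 3, TGL4 in 2, YEH1 in 1 and TGL5 in 0. The dim gene filter, the other variance model and the replicate block leave an estimate as it is, so they could not change a sign. Over settings TGL5 ran from 0.04 without wild type replicate 3 to 0.31 with normexp and no offset, TGL1 from −0.12 without wild type replicate 1 to 0.08 without wild type replicate 3, and TGL4 from −0.12 without wild type replicate 1 to 0.03 without wild type replicate 2. ACC1 stayed past the threshold throughout (2.25 to 2.36 with an array left out, up to 3.04). The 34 genes past the threshold became 38 with normexp at an offset of 50 or with control probes, 31 with no offset, 74 with a common median, 176 with array weights (whose fit stopped short of its tolerance), 5 at an adjusted p of 0.01, 68 at 0.1, and 4 to 123 with an array left out. With the replicate block the count was 121, and 142 with the block and normexp at an offset of 50. Same-numbered arrays deviated together with r of 0.467, −0.021 and 0.386. ACC1 overexpression replicate 2 did not correlate best with its own number, and the numbers were not taken as pairs. With 3 arrays per group these correlations are a weak basis for that choice. The replicate block lowered the TGL1 standard error from 0.10 to 0.06. In both groups the spot rows of replicates 1, 2 and 3 started at 1, 63 and 125, so replicate number and spot position cannot be told apart. The cause of the shifts in the counts was not tested. Of the genes on the 4 lists, 0 passed as reported, 4 with normexp at an offset of 50, 3 with no offset, 3 with control probes, 5 with a common median (among them SPO1, saturated on every array), 6 with array weights, 2 with the replicate block, 8 with the block and normexp, and 0 to 2 with an array left out. ECI1, EHT1, LRO1 and SPO14 were the 4 with an offset of 50. SPO14 was below the control percentile on all wild type arrays. Dim signal limits 5 of the 7 probes. The filter on dim genes kept a gene that exceeded the control percentile on all arrays of either group, which left 783 genes. All 7 members were kept, and TGL1, TGL2, TGL5 and YEH1 passed only through the ACC1 overexpression arrays. The filter is therefore no check on the dim members.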

Other observations

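The scaling moved dim and bright members in different directions, and the same was seen over all genes. When a common median replaced quantile normalization, TGL5 stood at 0.20 on the log2 scale (ACC1 overexpression minus wild type), YEH1 at 0.13, TGL2 at 0.08, YEH2 at 0.07 and TGL1 at 0.06, while TGL3 and TGL4 stood at −0.056 and −0.058. With genes ranked by mean level and split into 4 classes of 244 or 245, the median difference under a common median was 0.14 in the dimmest class, which holds TGL5, and 0.06 in the next, which holds TGL1, TGL2, YEH1 and YEH2. It was −0.03 in the third, with TGL4, and −0.08 in the brightest, with TGL3. Under quantile normalization the 4 medians lay between −0.028 and 0.0016. The unadjusted 95% interval of TGL5 under a common median ran from 0.06 to 0.34, and its adjusted p was 0.0820 in limma.

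Taken over the array, the listed probe letters lie on the strand of the labelled RNA as the labels describe it: the reverse complement held no stop codon in any of 979 probes, and the letters as listed held one in 441, while such a probe read ACC1 as 4.99-fold higher in ACC1 overexpression than in wild type. Which strand was on the array was not tested.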
